A study of Caenorhabditis elegans with 8 samples.

Results

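A set of 10 genes around the transcription factor ATF-4 were examined in whole Caenorhabditis elegans exposed to zidovudine, a thymidine analogue used as an antiretroviral drug. They were chosen by name from the 17826 genes of the table, and all 10 were found: atf-5 (the older symbol of atf-4), gcn-2, cbs-1, cbs-2, cth-1, cth-2, asns-2 and the serine synthesis genes C31C9.2, F26H9.5 and Y62E10A.13. All 10 reached the mean of 0 log2 CPM (CPM is a gene's reads scaled to a common library size) that a gene needed to be tested. The 4 control samples were wild-type worms of strain N2 given DMSO, the vehicle. The 4 treated samples were N2 worms given 50 µM zidovudine. Exposure of both groups began in L4 larvae and lasted 24 h, until the worms were young adults on day 1. The protocol, worded alike for all 8 samples, adds 5-fluorouracil, a pyrimidine analogue, to the plates. Each sample was a pool of worms and gave 1 library. Separate cultures are not stated in the labels, and the spread that the p-values rest on, which is that among these 8 pools, may be technical.

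In animal cells ATF-4 is the effector of the integrated stress response. Kinases such as GCN-2, which senses uncharged tRNA, phosphorylate the initiation factor eIF2, which lowers general translation while translation of ATF-4 itself goes up. ATF-4 then activates genes of amino acid synthesis and uptake, among them those for serine, asparagine and cysteine. In transsulfuration, cystathionine beta-synthase joins homocysteine and serine and cystathionine gamma-lyase releases cysteine; both enzymes can also produce hydrogen sulfide. Because ATF-4 is controlled largely in translation, its mRNA level need not follow its protein level, which was not measured here.

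Between 30449021 and 56930820 reads fell on genes in each library. Only DMSO 4 ran on a flow cell of its own, so that flow cell and that sample cannot be told apart; 8.24% of genes had 0 reads in it, against at most 2.17% in any of the other 7 libraries. All 38 markers of 8 tissues or cell types had reads in every library, as whole worms should show. The summed level of the 4 pharynx markers was 89.5 to 108 CPM with DMSO and 117 to 149 CPM with zidovudine, and that of the 5 late embryo markers was 101 to 113 CPM against 127 to 157 CPM. The other 6 marker sums overlapped between the groups, though single genes can differ where a sum does not. Of the 5 sperm markers tested, 4 were lower with zidovudine and 1 higher, with a median log2 difference of -0.31. Among these 5, 2 had groups that did not overlap, as had 6.65% of all tested genes. All 5 late embryo markers and all 4 pharynx markers were higher with zidovudine, with a median log2 difference of 0.45 in each list. Groups that did not overlap were found for 4 of the late embryo and 2 of the pharynx markers. Each had an unadjusted limma p under 0.05, as had 11.8% of all tested genes, and none an adjusted p under 0.05. In whole worms, fewer cells of a type and less RNA per cell cannot be told apart, and the part of these tissues in the results below was not tested.

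No member passed the test for a change between zidovudine and DMSO. None of the 10 passed an adjusted p of 0.05 in the limma fit across 12382 genes, in which 0.17% of all genes did, and 1 of 10, asns-2, had an unadjusted p under 0.05, against 11.8% of all genes in either direction and 5.48% in its own, lower with zidovudine. In none of the 10 did the 4 zidovudine libraries lie wholly on one side of the 4 DMSO libraries, as they did for 6.65% of all genes. The counts for the members are thus near the background. The difference, zidovudine minus DMSO, was below 0 for 8 members and above 0 for 2, beside 47.7% of all tested genes below 0. The members below 0 were 7 with quantile normalization, 9 with library totals as the only scaling, and 6 to 9 with 1 library left out. The median difference was -0.083 on the log2 scale, beside 0.0082 over all tested genes. With 1 library left out it ran from -0.11 without DMSO 1 to -0.023 without zidovudine 3. For 8 of the 10 members the 95% interval lay within a 1.5-fold change in either direction, as it did for 9048 of the 12382 tested genes. The exceptions among the members were gcn-2 and cbs-2.

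**Figure D1:**
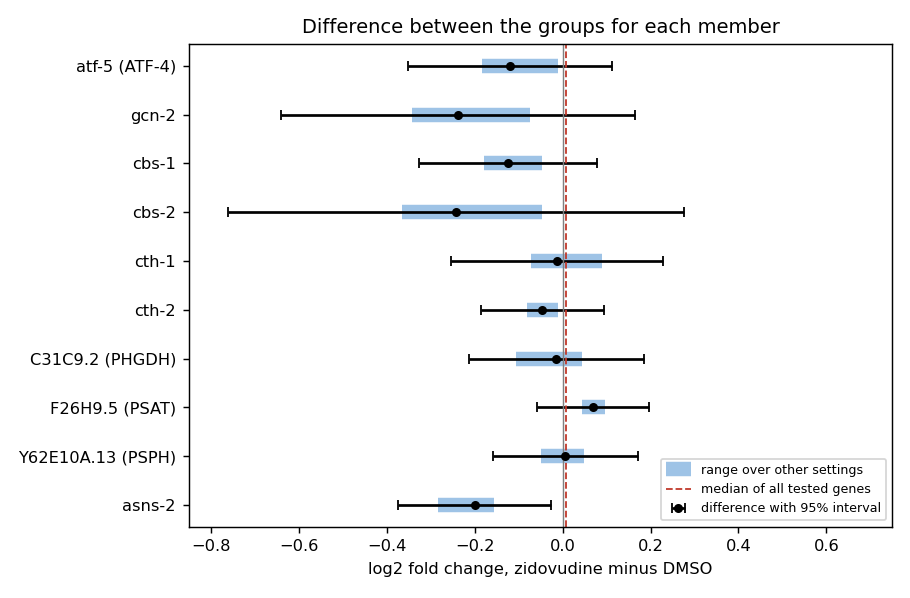
Log2 fold change (zidovudine minus DMSO) of each of the 10 members; points and black bars are the limma difference and its 95% interval, blue bars the range over the other settings tried, and the dashed line the median of all tested genes. Only the interval of asns-2 (-0.37 to -0.026) leaves out 0, and the intervals of gcn-2 and cbs-2 are the widest.

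The regulators come first. The transcript of ATF-4 (atf-5, WBGene00000221; chromosome X, 14809156 to 14810810 in WBcel235, minus strand, protein coding) was at 5.41, 5.59, 5.41 and 5.69 log2 CPM in DMSO 1 to 4. In zidovudine 1 to 4 it was at 5.59, 5.53, 5.08 and 5.42 log2 CPM. Zidovudine 1, 2 and 4 lay inside the range of the DMSO libraries and zidovudine 3 lay below it. The difference was -0.12 (SE 0.11, 95% interval -0.35 to 0.11, limma adjusted p = 0.671). Without zidovudine 3 it was -0.010. The interval reaches from a 1.28-fold decrease to a 1.08-fold increase, so larger changes of the mRNA lie outside it. The spread of atf-5 within groups, a pooled SD of 0.19 log2 units, was wider than that of 88.3% of the 1568 genes of like level (within 0.5 log2 CPM). On the same strand, 162 nt of atf-5 exon overlap another gene model, WBGene00303075, so some reads could belong to either.

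GCN-2 (gcn-2, WBGene00013591; chromosome II, 13084164 to 13091501, plus strand), the eIF2 kinase that senses amino acid shortage, had 5.64, 5.55, 5.92 and 6.36 log2 CPM in DMSO 1 to 4. The zidovudine libraries had 5.47, 5.70, 5.80 and 5.55 log2 CPM. DMSO 4 stood above all others, and the remaining 7 libraries overlapped. The difference was -0.24 (SE 0.17, 95% interval -0.64 to 0.16, limma adjusted p = 0.620), and -0.073 without DMSO 4. The gcn-2 mRNA has 5545 nt of exon, the longest among the members, and with the trend of each library on exon length removed its difference was -0.34. Its spread was wider than that of 96.1% of the 1653 genes of like level. Of its exons 79 nt are shared with Y81G3A.4 on the same strand. Overlaps of 30 nt or less with opposite-strand genes were found for cbs-2, cth-2 and F26H9.5.

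**Figure D2:**
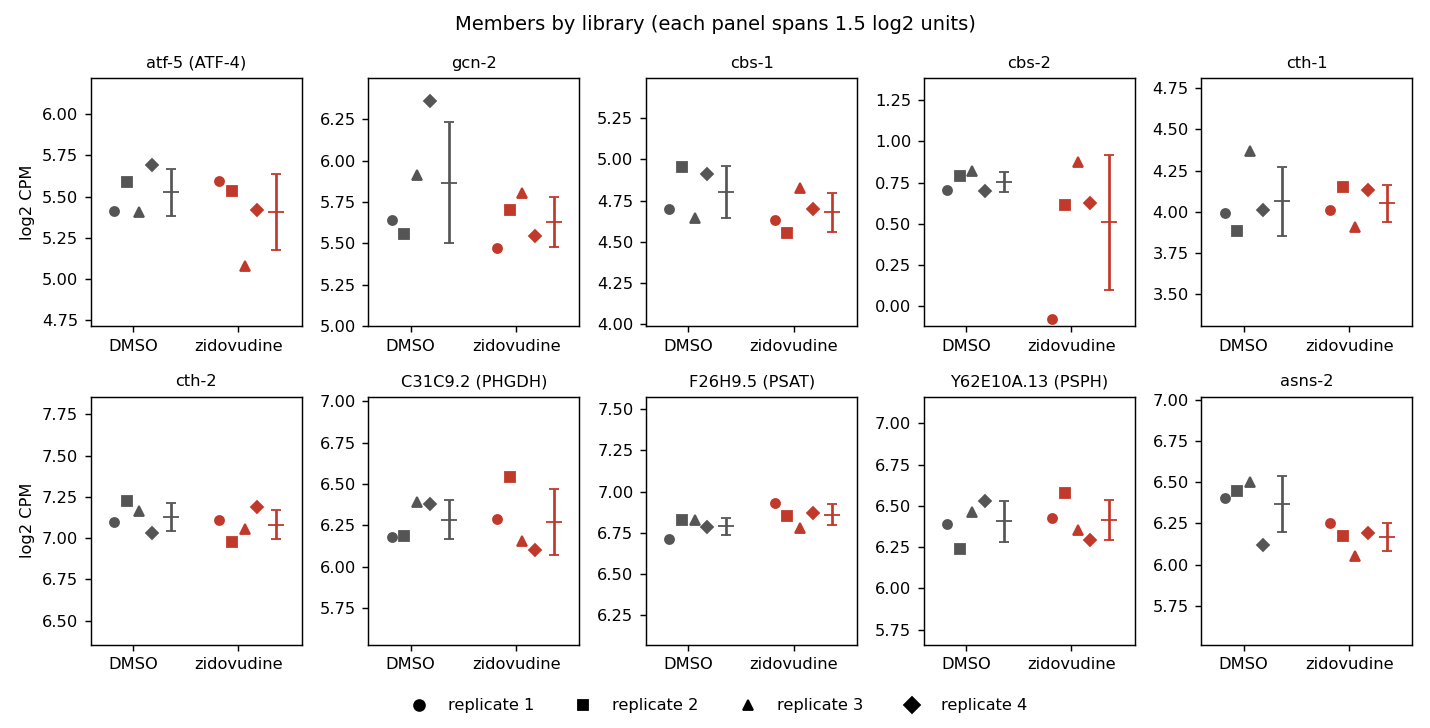
Log2 CPM of the 10 members in each of the 8 libraries (symbols mark the replicate number); the bar beside each group is the mean ± SD, n = 4, and every panel spans the same 1.5 log2 units. The groups overlap in every panel. Values away from the rest of their groups include gcn-2 (6.36) and asns-2 (6.12) in DMSO 4, cth-1 in DMSO 3 (4.37), atf-5 in zidovudine 3 (5.08) and cbs-2 in zidovudine 1 (-0.078). None of them met Dixon's criterion, which is used at the end of this report.

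The enzymes of transsulfuration were present at very unequal levels. Compared per length, in RPKM (CPM per kb of exon), cth-2 was the most abundant of all members with 95 to 113 over the 8 libraries, cth-1 had 11.4 to 15.9, cbs-1 had 10.2 to 13.5 and cbs-2 had 0.432 to 0.858. The ranges of cth-1 and cbs-1 overlap, and cbs-1 was the higher of the pair in DMSO 2, DMSO 4 and zidovudine 3. The length-scaled level of cth-2 was 6.79 to 9.91 times that of cth-1, its paralog. That of cbs-1 was 13.2 to 24.9 times that of cbs-2. These ratios did not separate the groups: on the log2 scale cth-2 over cth-1 was 3.03 ± 0.23 with DMSO and 3.0 ± 0.14 with zidovudine, and cbs-1 over cbs-2 was 3.95 ± 0.18 and 4.08 ± 0.38 (SD, n = 4 each). Whether reads are shared between the paralogs was not tested.

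The major gamma-lyase cth-2 (WBGene00022856; chromosome II, 7056184 to 7057960, minus strand) had 7.10, 7.22, 7.16 and 7.03 log2 CPM with DMSO and 7.11, 6.98, 7.05 and 7.19 log2 CPM with zidovudine. Both groups covered nearly the same range. The difference was -0.046 (SE 0.066, 95% interval -0.19 to 0.094, limma adjusted p = 0.795), so the interval ends at a 1.14-fold decrease and a 1.07-fold increase. The minor gamma-lyase cth-1 (WBGene00009048; chromosome V, 16100680 to 16102750, plus strand) had 3.99, 3.88, 4.37 and 4.01 log2 CPM with DMSO and 4.01, 4.15, 3.91 and 4.13 log2 CPM with zidovudine. DMSO 3 was highest and the groups overlapped (difference -0.012, SE 0.11, limma adjusted p = 0.977).

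The beta-synthase cbs-1 (WBGene00013866; chromosome X, 10054275 to 10057528, plus strand) had 4.70, 4.96, 4.64 and 4.91 log2 CPM with DMSO and 4.63, 4.55, 4.83 and 4.70 log2 CPM with zidovudine. DMSO 2 and DMSO 4 were highest and zidovudine 2 lowest, with overlap between the groups (difference -0.12, SE 0.095, 95% interval -0.33 to 0.077, limma adjusted p = 0.619). Its paralog cbs-2 (WBGene00018783; chromosome II, 2220396 to 2223567, minus strand) had only 47 to 83 reads per library. It was at 0.70, 0.79, 0.82 and 0.70 log2 CPM with DMSO and at -0.078, 0.61, 0.88 and 0.63 log2 CPM with zidovudine. Zidovudine 1 was lowest and zidovudine 3 highest of all 8 libraries. The groups were apart only without zidovudine 3, where 8.75% of all genes also had groups apart and the difference was -0.36 (limma adjusted p = 0.792). The full difference of -0.24 (SE 0.24, limma adjusted p = 0.699) had a 95% interval from -0.76 to 0.28, the widest of the members, and was -0.046 without zidovudine 1.

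**Figure D3:**
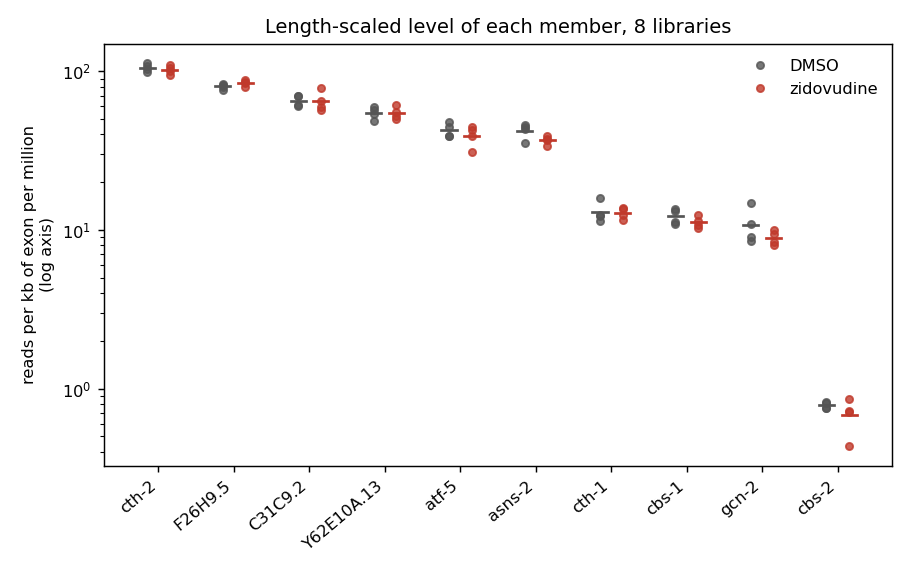
RPKM (log axis) of each member in the 4 DMSO and 4 zidovudine libraries, with a short line at each group mean, ordered by the mean of all libraries. Levels run from cth-2 (mean 104) to cbs-2 (mean 0.733), far apart beside the distance between the groups for any member.

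The enzymes of serine synthesis act one after the other on an intermediate of glycolysis. C31C9.2 (WBGene00007836; phdh-1 in the current annotation), for phosphoglycerate dehydrogenase, catalyses the first step, F26H9.5, for phosphoserine aminotransferase, the next, and Y62E10A.13, for phosphoserine phosphatase, the last. Their length-scaled levels were of the same order, with 76.3 to 88.6 RPKM for F26H9.5, 57.3 to 78.1 for C31C9.2 and 48.6 to 61.4 for Y62E10A.13. The ranges of neighbours in this order overlap, but within each library F26H9.5 was 1.07 to 1.48 times C31C9.2, and C31C9.2 was 1.12 to 1.27 times Y62E10A.13, so the order was the same in all 8 libraries. Among the other members, atf-5 (31 to 47.6) and asns-2 (33.8 to 46.1) could not be ordered, nor could cth-1, cbs-1 and gcn-2, the last at 7.98 to 14.8. Exon lengths are the union of all annotated exons, which can understate the level of a gene whose longest isoform is rare.

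C31C9.2 (chromosome II, 13636869 to 13638480, minus strand) had 6.18, 6.19, 6.39 and 6.38 log2 CPM with DMSO and 6.29, 6.55, 6.15 and 6.10 log2 CPM with zidovudine. The highest and the lowest libraries were both zidovudine libraries. The difference was -0.014 (SE 0.093, 95% interval -0.21 to 0.19, limma adjusted p = 0.966). Y62E10A.13 (WBGene00013379; chromosome IV, 13389146 to 13399053, minus strand) had 6.39, 6.24, 6.46 and 6.53 log2 CPM with DMSO and 6.43, 6.58, 6.36 and 6.29 log2 CPM with zidovudine. The groups again covered nearly the same range, with a difference of 0.0066 (SE 0.078, 95% interval -0.16 to 0.17, limma adjusted p = 0.982). C31C9.2 shares 106 nt of exon with tag-10 on the opposite strand, and the strand setting of the authors' counting is unknown here. tag-10 itself rose, from 4.80 ± 0.060 to 5.23 ± 0.033 log2 CPM (SD, n = 4 each; difference 0.42, SE 0.072, limma adjusted p = 0.0300), while C31C9.2 did not pass.

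F26H9.5 (WBGene00009177; chromosome I, 9312631 to 9314891, minus strand) was the steadiest member. It had 6.71, 6.83, 6.83 and 6.78 log2 CPM with DMSO and 6.93, 6.85, 6.78 and 6.87 log2 CPM with zidovudine. Zidovudine 1, 2 and 4 lay above all DMSO libraries and zidovudine 3 lay among them; without zidovudine 3 the groups did not overlap, as for 8.75% of all genes in that setting (limma adjusted p = 0.773). The difference was 0.070 (SE 0.060, 95% interval -0.057 to 0.20, limma adjusted p = 0.654), the largest above 0 among the members. Its spread within groups, a pooled SD of 0.059, was narrower than that of most genes of like level, of which 11.1% were narrower still.

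The levels of C31C9.2 and Y62E10A.13 moved together from library to library. Over the 8 libraries Pearson's r was 0.89 (exact permutation p = 0.00268, 0.121 after adjustment over the 45 pairs of members) and Spearman's rho was 0.83 (exact permutation p = 0.0154, 0.590 adjusted), so the relation fails the correction. Both were highest in zidovudine 2 and low in zidovudine 4. Without the libraries farthest from the median of C31C9.2, 2 in all, r was 0.83; within the groups it was 0.90, without DMSO 4 0.89, and with the trend on exon length removed 0.90. Of the other tested genes, 0.21% had a higher r with C31C9.2 than Y62E10A.13 had. F26H9.5, the enzyme between them, did not share the pattern (r = 0.18 with C31C9.2 and 0.0044 with Y62E10A.13). In the opposite sense, cth-2 and Y62E10A.13 had r = -0.81 (exact permutation p = 0.0169, 0.381 adjusted) and rho = -0.76 (exact permutation p = 0.0368, 0.590 adjusted), so this relation fails the correction too. Within the groups r was -0.84, without DMSO 4 -0.77, and with the trend on exon length removed -0.75. Without the libraries farthest from the median of cth-2, 2 in all, r was -0.50. Leaving those out also narrows the range of cth-2, so how far the relation rests on them was not tested. No other pair had an r beyond 0.8 in either direction, and the members share library depth and scaling.

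**Figure D4:**
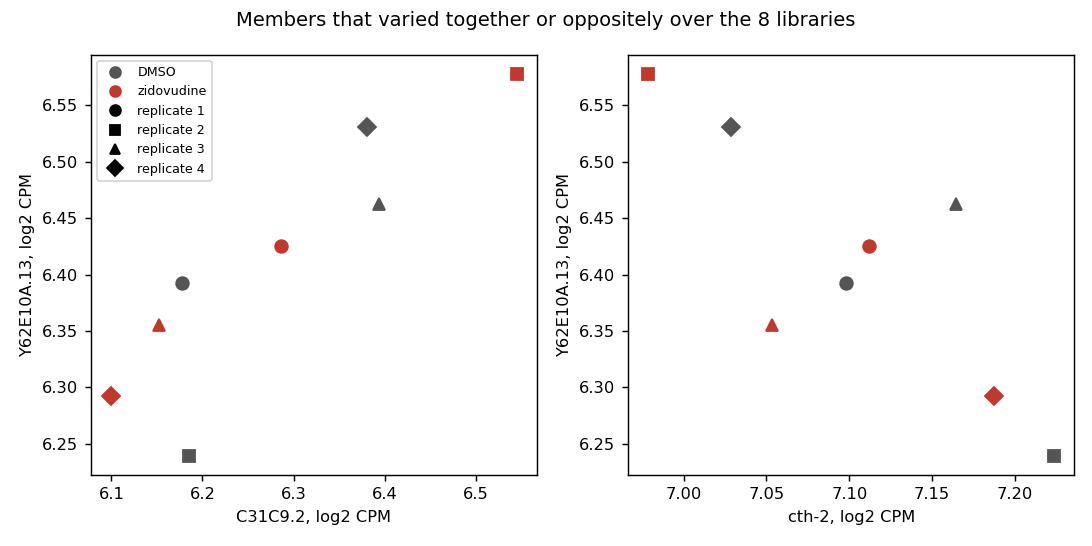
Log2 CPM of Y62E10A.13 against C31C9.2 (left) and against cth-2 (right) in the 8 libraries; colour marks the group and symbol the replicate number. The left panel rises from zidovudine 4 and DMSO 2 to zidovudine 2 (r = 0.89), the right panel falls (r = -0.81), and DMSO and zidovudine libraries are mixed along both.

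Asparagine synthetase makes asparagine from aspartate and glutamine and is a classical ATF-4 target in mammals. asns-2 (WBGene00019730; chromosome X, 8748434 to 8750941, minus strand) was the member with the smallest p, rank 923 of the tested genes. It had 6.40, 6.45, 6.5 and 6.12 log2 CPM in DMSO 1 to 4 and 6.25, 6.17, 6.05 and 6.19 log2 CPM in zidovudine 1 to 4. DMSO 1, 2 and 3 lay above all zidovudine libraries, and DMSO 4 lay among them. The difference was -0.20 (SE 0.082, 95% interval -0.37 to -0.026), with an unadjusted p of 0.0268 and a limma adjusted p = 0.359, and it did not pass. Without DMSO 4, and so within 1 flow cell, the groups no longer overlapped, as they did not for 4.35% of all genes in that direction; the difference was -0.28 (95% interval -0.42 to -0.14, limma adjusted p = 0.0877) and did not pass, as 0.283% of all genes did there. Without both DMSO 4 and zidovudine 2 it was -0.28 and passed (limma adjusted p = 0.0485), in a setting where 1.26% of all genes passed and 10.1% had zidovudine libraries all below the DMSO libraries. Over all settings it stayed below 0, from -0.28 to -0.16, and its limma adjusted p ranged from 0.0485 to 0.715.

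The paralog asns-1 was scarcely expressed, with 15 to 94 reads per library, and the length-scaled level of asns-2 was 42.6 to 220.5 times that of asns-1. asns-1 was at 0.48, 0.32, 0.052 and -1.36 log2 CPM with DMSO and at 0.72, 0.55, -0.48 and 0.94 log2 CPM with zidovudine. Its libraries spread over more than the distance between the groups (difference 0.56, SE 0.42, limma adjusted p = 0.619). It was lowest in DMSO 4, without which the difference was 0.14.

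The wider pathways were followed in 7 gene lists, in none of which a gene passed the adjusted threshold in the fit of all 8 libraries. Besides asns-2, genes that passed in another setting were gcsh-1 and R102.4 of the serine and glycine list and zip-7 of the bZIP list with sample quality weights (limma adjusted p = 0.0398, 0.0445 and 0.0473), and gcsh-1 without DMSO 4 and zidovudine 2 (limma adjusted p = 0.0434). The eIF2 kinase arm (kinases, their regulators, and the subunits of eIF2 and of its exchange factor eIF2B) had 13 tested genes. Of these, 9 were below 0, beside 47.7% of all tested genes, and 4 above, with a median of -0.031. In this arm 1 gene had an unadjusted p under 0.05, beside 11.8% of all genes. Another 1 had groups that did not overlap, beside 6.65% of all tested genes. The smallest p among its genes other than gcn-2 was that of eif-2Bepsilon, the catalytic eIF2B subunit (difference 0.16, SE 0.072, limma adjusted p = 0.390). The 22 tested bZIP transcription factors had 12 above 0, beside 52.3% of all tested genes, and 10 below, with a median of 0.0058. Of the 22, 2 had an unadjusted p under 0.05, both higher, beside 11.8% of all genes in either direction (5.48% lower with zidovudine). Among them atf-6, for a sensor of endoplasmic reticulum stress, had 3.86 to 4.10 log2 CPM with DMSO and 4.26 to 4.33 with zidovudine. Its groups did not overlap, which makes 1 of the 22, beside 6.65% of all tested genes. The difference of 0.31 (SE 0.090) did not pass (limma adjusted p = 0.191).

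In the list of transsulfuration, cysteine and sulfide genes, 11 of 16 tested genes were below 0, beside 47.7% of all tested genes. The median was -0.035, and none had an unadjusted p under 0.05. The smallest p outside the members was that of mpst-7, for a mercaptopyruvate sulfurtransferase (difference 0.32, SE 0.17, limma adjusted p = 0.473). It had 78 to 171 reads per library, and its groups did not overlap. In this list 2 of the 16 genes had groups that did not overlap, beside 6.65% of all tested genes. In the serine and glycine list 8 of 12 were below 0, beside 47.7% of all tested genes. The median was -0.019, and 0.020 without DMSO 4, where 7 were above 0. Of the 12, 3 had an unadjusted p under 0.05, all lower with zidovudine, beside 5.48% of all genes in that direction: gcsh-1, and gcsh-2 (-0.30) and R102.4 (-0.30), both named after their values were seen. The groups of gcsh-1 and R102.4 did not overlap, which makes 2 of the 12, beside 6.65% of all tested genes. gcsh-1, for an H protein of the glycine cleavage system, had 3.67, 3.65, 3.37 and 3.74 log2 CPM with DMSO and 2.96, 3.37, 3.14 and 2.86 log2 CPM with zidovudine. DMSO 3 and zidovudine 2 nearly met at 3.37, and the difference of -0.52 (SE 0.13) did not pass (limma adjusted p = 0.136). The mRNA has 511 nt of exon, and with the length trend removed the difference was -0.30.

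All 10 genes of the methionine cycle list, which supplies the homocysteine that transsulfuration uses, were above 0, beside 52.3% of all tested genes, with a median of 0.13 beside 0.0082. None passed, and none had groups that did not overlap. An unadjusted p under 0.05 was found for 3 of the 10, all higher, beside 11.8% of all genes in either direction (5.48% lower with zidovudine). The direction held for all 10 genes in the other settings, but these reuse the same libraries and are no independent test. The list was also chosen with earlier results of these data known. In those settings its median ran from 0.080 with the length trend removed to 0.19 without DMSO 2. The median was 0.089 without DMSO 4. sams-1, for an S-adenosylmethionine synthetase, had 6.63, 6.83, 6.55 and 6.37 log2 CPM with DMSO and 6.88, 6.79, 7.05 and 7.04 log2 CPM with zidovudine. Only DMSO 2 reached into the range of the zidovudine libraries (difference 0.35, SE 0.092, limma adjusted p = 0.172). The related sams-3 (0.26) and sams-4 (0.19), named after their values were seen, were the others with an unadjusted p under 0.05; these are paralogs of one another, and whether they share reads was not tested.

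The list of asparagine, aspartate, glutamate and proline genes had 10 of 18 above 0, beside 52.3% of all tested genes. Its median was 0.033, and 0.016 without DMSO 4. In 2 of the 18 the groups did not overlap, beside 6.65% of all tested genes. The gene with an unadjusted p under 0.05 was asns-2. Next came gln-5, for a glutamine synthetase, with the smallest p outside the members (difference 0.18, SE 0.088, limma adjusted p = 0.437). Of the 10 tested amino acid transporter genes 6 were above 0, beside 52.3% of all tested genes. Their median was 0.059, and 0.020 without DMSO 4. In that list 3 had an unadjusted p under 0.05, all higher with zidovudine, beside 11.8% of all genes in either direction (5.48% lower). In 1 of the 10 the groups did not overlap, beside 6.65% of all tested genes. The smallest p was that of aat-6 (difference 0.54, SE 0.17, limma adjusted p = 0.248), which was at 0.39 without DMSO 4.

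**Figure D5:**
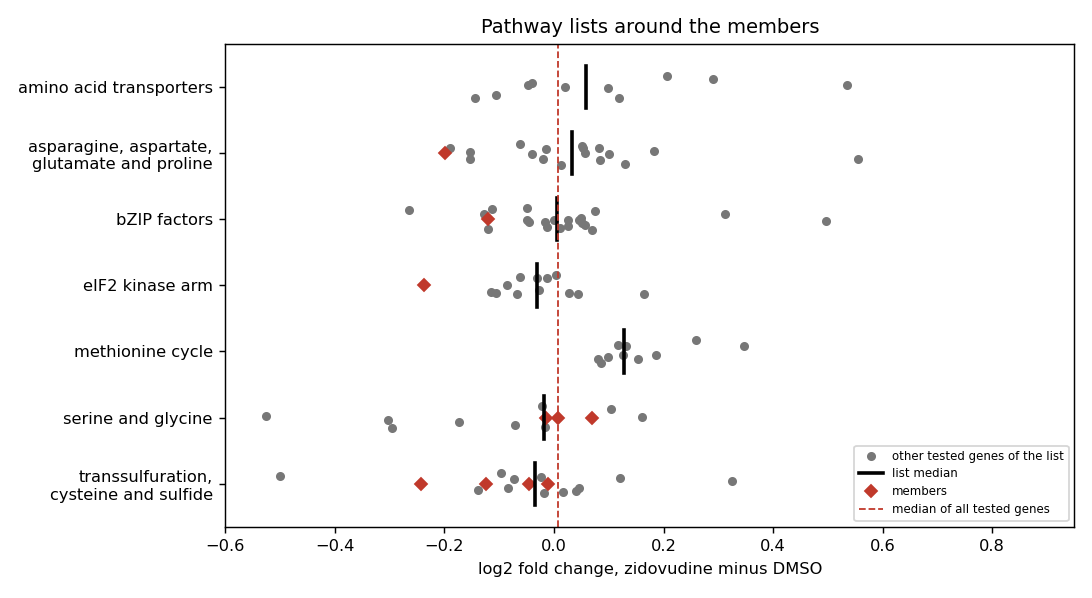
Log2 fold change (zidovudine minus DMSO) of every tested gene in the 7 pathway lists; grey points are genes outside the members, red diamonds members, black bars list medians, and the dashed line the median of all tested genes (0.0082). The methionine cycle list is the only one with all its genes above 0, and no gene shown passed the adjusted threshold in the fit plotted, that of all 8 libraries.

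The genes whose levels most resembled single members across the 8 libraries were sought among the 10877 genes whose mean reached 1 log2 CPM, as a description. For atf-5 they were C01B12.9 (r = 0.95) and ZK856.11 (r = 0.94), and for cth-2 they were R02D5.8 (r = 0.96) and tftc-5 (r = 0.95). For C31C9.2 they were the neuronal gene unc-119 (r = 0.97) and F53A9.1 (r = 0.94). Such values were not limited to the genes named: of the 10877 genes, 9 exceeded 0.9 for atf-5, 11 for cth-2 and 20 for C31C9.2. How many would do so by chance, with so many genes and 8 libraries, was not tested.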

How the data were processed

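Polyadenylated RNA of 8 whole-worm samples (4 DMSO, 4 zidovudine) was sequenced. The authors deposited 1 table of 17826 genes whose columns are headed CPM, per the file headers; negative values show that the deposited scale is log2 CPM. Upstream tools, in no stated role, include HISAT2 2.1.0 and HTSeq 0.11.0, per the submitters' processing notes, which also list limma 3.40.6, edgeR 3.26.8, Trimmomatic 0.32 and FastQC. Not given in the sources used here are build, annotation and strand setting. Unlogged values, less the floor common to all columns, came out as whole reads (100% within 0.05 reads) with a prior of 2 reads.

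Members and lists were matched by symbol or gene ID, and atf-5 is atf-4 in the current tables. Positions and exon lengths came by gene ID from Ensembl release 115 (WBcel235). The test was limma-trend (limma 3.58.1, R 4.3.3, robust, two-sided, 6 residual degrees of freedom) on the 12382 genes whose mean reached 0 log2 CPM, with Benjamini-Hochberg adjustment over all of them. Fold changes are on the log2 CPM scale with that prior, which pulls those of low genes toward 0. From each list the gene outside the members with the smallest p was named where none passed; asns-1 was named as the paralog of a member. The members and lists were chosen with earlier results of these data known. The scripts were tested on simulated data. Alternatives were another normalization, prior, filter or variance model, sample weights, the replicate number as a block, each library left out, and removal of the trend on exon length.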

Additional observations from a re-analysis of the deposited data

Results flagged for a closer look

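In 64 groups of 4 libraries, 2 values stood far from the other values of their group by Dixon's criterion, which chance meets in about 5% of groups. The log2 ratio of the length-scaled levels of cbs-1 over cbs-2 was 4.64 in zidovudine 1 and 3.85 to 3.98 in the other zidovudine libraries; cbs-2 had 47 to 83 reads per library. The level of atf-6 was 4.26 log2 CPM in zidovudine 2 and 4.33 in the other zidovudine libraries, a distance smaller than the spread of the DMSO libraries.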

How the results depend on the processing

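Over 19 other settings no difference passed for 9 of the 10 members; asns-2 alone passed, without DMSO 4 and zidovudine 2 together (1 member past the threshold, and 1 whose groups did not overlap, beside 10.1% of all genes in that direction). The cause was not tested. The members with an unadjusted p under 0.05 were 0 with limma without the trend and 0 to 1 with 1 library left out (0 without DMSO 1, DMSO 2, DMSO 3 or zidovudine 3). Those whose groups did not overlap were 0 to 2 with 1 library left out, 1 (asns-2, beside 4.35% of all genes in that direction) without DMSO 4 and 2 (F26H9.5 and cbs-2, beside 8.75% of all genes) without zidovudine 3. Differences near 0 changed sign. That of cth-1 ran from -0.072 to 0.089 with 1 library left out. That of C31C9.2 was 0.0033 with quantile normalization and -0.11 to 0.043 with 1 library left out. That of Y62E10A.13 was -0.0024 with library totals, -0.0070 without DMSO 4 and zidovudine 2, -0.016 with the length trend removed and -0.049 to 0.048 with 1 library left out. The genes past the threshold over the whole table, 21 in the test reported, were 12 with library totals, 4 without the trend, 148 with sample weights, 156 without DMSO 4 and zidovudine 2, 4 to 41 with 1 library left out, 5 at an adjusted p of 0.01 and 54 at 0.1. With the replicate number as a block they were 9, and no member passed. The numbers gave no clear sign of pairing: the deviations of same-numbered libraries correlated at 0.067, -0.18, 0.14 and -0.32. Only zidovudine 1 was most like the DMSO library of its own number. With 4 libraries per group these values cannot exclude that same-numbered samples shared a culture or batch. With a minimum of 1 log2 CPM cbs-2 was not tested. Both cbs-2 (47 to 83 reads, SE 0.24) and asns-1 (15 to 94 reads, SE 0.42) had few reads and wide errors. The spread within groups of cbs-2 was wider than that of 26.4% of the 1508 genes of like level. That of asns-1 was wider than that of 94.4% of the 974 genes of like level. How far read numbers set these errors was not tested.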
